A study of Mus musculus with 7 samples.

Results

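The genes described here are 10 autoantigens of the pancreatic beta cell that are recognised in type 1 diabetes, followed in medullary epithelial cells of the thymus of mice on the NOD background, the strain that develops autoimmune diabetes. They were taken from a written list and not from their values: Ins1, Ins2, Iapp, G6pc2, Gad1, Gad2, Ptprn, Ptprn2, Slc30a8 and Chga. Of the 10, 9 were measured by a probe set that the platform annotation gives 1 gene symbol, out of 19937 genes so measured on the arrays. Ins1 had no such probe set and was not analysed here. Each of the 9 had 1 probe set, so the choice of the brightest probe set of a gene did not arise.

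The reconSCID group (3 samples) came from NOD mice carrying SCID, a mutation of DNA-dependent protein kinase (DNA-PK). The reconRAG1KO group (4 samples) came from NOD mice with a null Rag1 gene and serves as the control. Both groups lack mature lymphocytes of their own, and both were given bone marrow by intraperitoneal injection as pups of 2 to 4 days, 6 h after irradiation with 200 rad, so the controls share the irradiation and the transfer. Thymi were taken 6 to 8 weeks later, the labels describe the sorted cells as medullary epithelial cells with high MHC class II, and the samples are called biological replicates without a statement of how many thymi each holds, so that p-values measure the spread between these samples.

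Medullary epithelial cells transcribe genes that otherwise belong to single tissues, insulin among them, and display the peptides to developing T cells, which are deleted or diverted to a regulatory fate when they bind them strongly. Much of this transcription depends on Aire, a nuclear protein that acts with partners that include DNA-PK, and a further share depends on the transcription factor Fezf2. Thymic expression of insulin is known to influence diabetes in NOD mice, in which insulin, chromogranin A, islet amyloid polypeptide and the glucose-6-phosphatase encoded by G6pc2 are all targets of pathogenic T cells. The comparison asks whether these antigens are expressed differently where DNA-PK is defective.

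Levels are log2 of the deposited probe set intensity, and differences are reconSCID minus reconRAG1KO on that scale. The array medians lay between 6.47 and 6.59. Of the 9 antigens, 3 (Gad1, Ptprn2 and Chga) lay above the array median on all 7 arrays, against 50.3% of all genes. Another 4 (Ins2, G6pc2, Gad2 and Slc30a8) lay below it on all 7, and Iapp and Ptprn lay on both sides. Probe sets differ in how brightly they report a transcript, so these places do not rank the antigens by amount of RNA, and at a low level a log2 difference can understate a change of the transcript. In bulk RNA of this kind, fewer expressing cells and less RNA per cell cannot be told apart.

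The arrays were not homogeneous. Between reconSCID replicate 2 and reconRAG1KO replicate 4 the correlation over probe sets was 0.972, within the remaining 5 arrays it was 0.976 to 0.990, and between these sets it was 0.922 to 0.947. No batch is named in the labels, each of these array sets held both groups, and results are therefore given also with the array set blocked. Markers of the labelled cells were measured at high levels, although not all belong to epithelium alone. Cd74, the MHC class II invariant chain, which B cells and dendritic cells make too, measured 13.27 to 13.40 in reconSCID and 13.37 to 13.39 in reconRAG1KO, and the epithelial adhesion gene Epcam measured 8.91 to 10.35 and 9.31 to 10.16 in the same order. Transcripts of other cells were present too, since the myeloid lysozyme gene Lyz2 measured 11.53 to 13.23 in reconSCID and 11.68 to 12.53 in reconRAG1KO.

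Chga and Iapp, which had the largest differences among the antigens, are shown by the sequence around their annotated transcription start (RefSeq, GRCm38.p6, from 250 bases before the start to 50 after it, plus strand, chr12:102554691-102554990 and chr6:142298175-142298474). Capitals mark TATAAA, the core of the TATA box, and TGACG, a core sequence bound by CREB-type factors, each searched on both strands, and the marked matches do not overlap.
Chga: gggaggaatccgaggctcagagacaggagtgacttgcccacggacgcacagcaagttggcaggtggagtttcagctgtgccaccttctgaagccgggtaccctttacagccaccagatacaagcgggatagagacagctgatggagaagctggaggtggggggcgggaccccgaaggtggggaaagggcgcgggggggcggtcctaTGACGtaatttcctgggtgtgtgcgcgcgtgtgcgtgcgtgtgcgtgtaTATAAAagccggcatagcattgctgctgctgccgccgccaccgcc
Iapp: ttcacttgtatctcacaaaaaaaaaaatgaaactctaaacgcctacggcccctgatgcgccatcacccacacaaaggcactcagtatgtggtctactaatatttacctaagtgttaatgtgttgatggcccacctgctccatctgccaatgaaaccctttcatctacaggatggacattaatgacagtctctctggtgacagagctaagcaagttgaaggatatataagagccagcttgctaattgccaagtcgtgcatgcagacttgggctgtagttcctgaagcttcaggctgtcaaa
The Chga window held TGACG at position -44 from the start and TATAAA at position 5, that is after the annotated start. The Iapp window held neither exact string. It does hold the similar letters tatataa before its start, a variant that was not searched for. The search therefore does not show which of the 2 genes has a TATA box. Over all 32851 windows of 300 bases in the RefSeq table, 13.6% held TATAAA and 20.8% held TGACG. Windows were found for 8 of the 10 genes, 10 windows in all, of which 2 (Chga, Gad1) held TATAAA and 4 (Chga, G6pc2, Gad2, Ptprn) held TGACG. A match is a description of the letters and shows no binding.

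None of the 9 antigens passed the test between the groups, and the clearest difference was a lower level of Chga in reconSCID. By limma, 0 of 9 had an adjusted p under 0.05, as did 0% of all 34760 probe sets. At an unadjusted p under 0.05, 1 antigen (Chga) was lower, against 1.19% of all genes, and 0 were higher, against 0.863% of all genes. Over all probe sets, named or not, these shares were 1.13% lower and 2.20% higher. The difference was below 0 in 7 of 9 antigens, against 52.4% of all genes (with the array set blocked, 7 of 9 against 54.3%), and its median was -0.10 over the antigens and -0.007 over all genes. The 95% interval of the difference lay between -1 and 1, that is within a 2-fold change of measured intensity either way, for 8 of 9, the exception being Iapp. Of these, Ins2, G6pc2, Gad2 and Slc30a8 lay below the array median on every array, and all but Chga had identical values among samples. For such probe sets a narrow interval does not bound the change of the transcript.

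**Figure D1:**
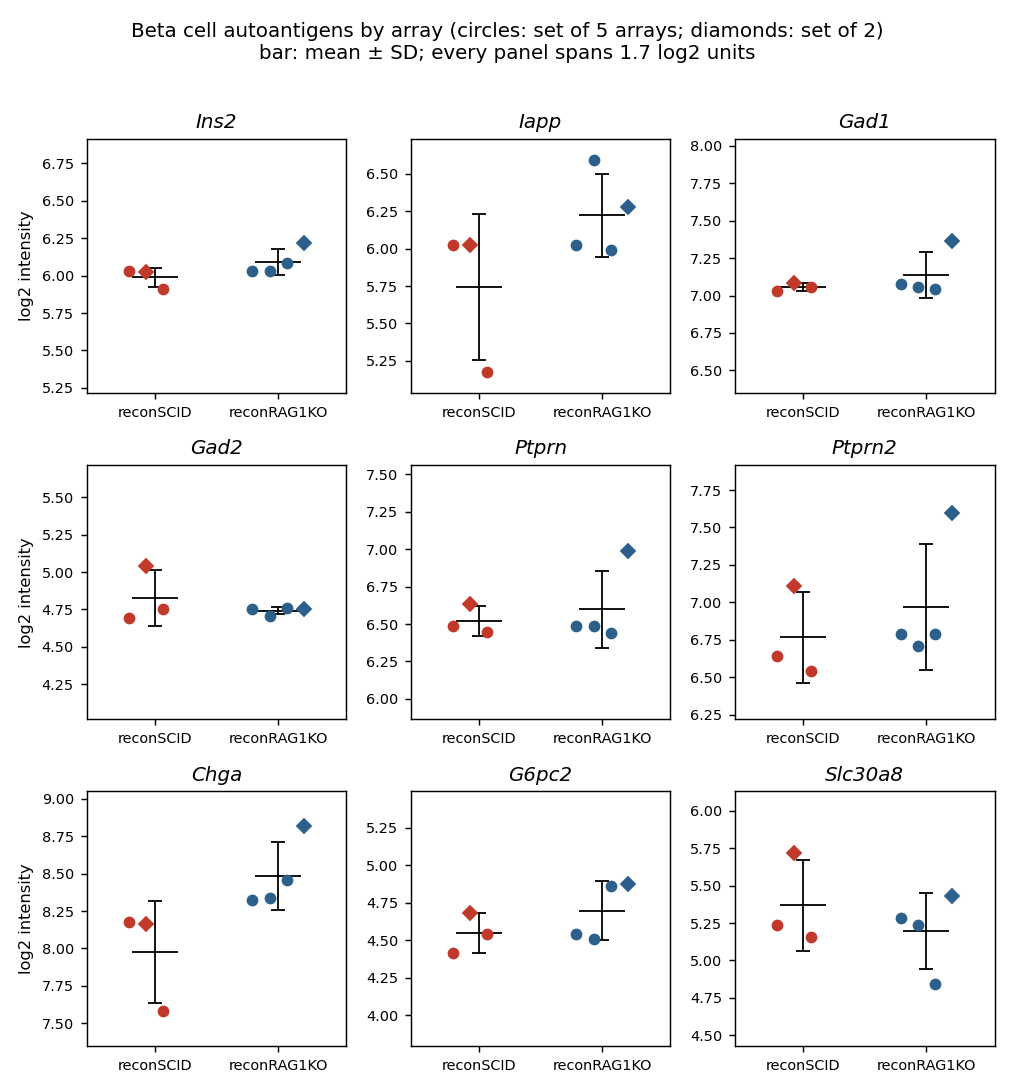
Log2 intensity (vertical axis) of each of the 9 antigens in the 3 reconSCID samples (red, left) and the 4 reconRAG1KO samples (blue, right), replicates in number order, with diamonds for the set of 2 arrays, and with the mean and SD as a black bar. Chga is the 1 panel in which every reconSCID point, 7.58 to 8.17, lies below every reconRAG1KO point, 8.32 to 8.82.

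Insulin and its co-secreted hormone came first. Ins2, the insulin gene that is the one mainly transcribed in mouse thymus, measured 6.03, 6.02 and 5.91 in reconSCID replicates 1 to 3, against 6.03, 6.03, 6.08 and 6.22 in reconRAG1KO replicates 1 to 4. The groups met at one value, since reconSCID replicate 1 and reconRAG1KO replicates 1 and 2 held the same deposited number, and the remaining samples spread downward in reconSCID and upward in reconRAG1KO. The difference of Ins2 was -0.10 ± 0.09 (SE), with an interval from -0.31 to 0.11, an unadjusted limma p of 0.2869 and an exact permutation p of 0.2. With the array set blocked it was -0.11, with an interval from -0.26 to 0.04. A 2-fold fall of the measured intensity lay outside both intervals. Ins2 lay below the array median on all 7 arrays and shared deposited values between samples. The intervals therefore do not bound a change of the Ins2 transcript itself. The near-identical Ins1 gene may contribute to this probe set, which the files do not settle.

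Iapp, the amyloid peptide stored and released with insulin, measured 6.03, 6.03 and 5.18 in reconSCID, against 6.03, 6.59, 5.99 and 6.28 in reconRAG1KO. A single sample, reconSCID replicate 3, was low, and the other reconSCID samples lay inside the range of reconRAG1KO. The difference of Iapp was -0.48 ± 0.26 (SE; interval -1.09 to 0.13), with an unadjusted limma p of 0.1071, and without reconSCID replicate 3 it was -0.20. Its paralog Calcb, a gene of calcitonin gene-related peptide and not one of the antigens, measured 9.96, 9.90 and 9.04 in reconSCID, against 9.97, 10.15, 10.43 and 10.26 in reconRAG1KO. Calcb was the 1 of 21 listed paralogs of the antigens whose groups did not overlap, against 1.54% of all genes. Calcb differed by -0.57, with an interval from -1.16 to 0.01 and an adjusted limma p of 1.

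Glutamate decarboxylases make the transmitter GABA, and antibodies to the Gad2 product are a mark of human type 1 diabetes. Gad1 measured 7.03, 7.08 and 7.06 in reconSCID, against 7.08, 7.06, 7.04 and 7.36 in reconRAG1KO. All samples but reconRAG1KO replicate 4 lay within 7.03 to 7.08, and the groups overlapped. The difference of Gad1 was -0.08, with an interval from -0.33 to 0.18, and within the 5 arrays of the larger set it was -0.01, with an interval from -0.12 to 0.10.

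Gad2 measured 4.69, 5.04 and 4.75 in reconSCID, against 4.75, 4.71, 4.76 and 4.75 in reconRAG1KO. Only reconSCID replicate 2 stood above the others, and its level set the sign of the group difference. That difference was 0.09 (interval -0.17 to 0.34), and within the 5 arrays it was -0.02, with an interval from -0.14 to 0.11. The isoform of pancreatic islets in humans was thus measured at a low level, with no difference that exceeded the spread between samples.

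Ptprn and Ptprn2 encode IA-2 and IA-2 beta, catalytically inactive tyrosine phosphatase relatives in the membrane of dense-core vesicles, both of which are autoantibody targets. Ptprn measured 6.49, 6.63 and 6.44 in reconSCID, against 6.49, 6.49, 6.44 and 6.99 in reconRAG1KO. Both high values came from the set of 2 arrays, whose samples exceeded the other 5 by 0.35 after the group was allowed for (adjusted limma p of 0.02701). The group difference of Ptprn was -0.08 (interval -0.45 to 0.29), and -0.006 within the 5 arrays.

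Ptprn2 measured 6.64, 7.11 and 6.54 in reconSCID, against 6.79, 6.71, 6.79 and 7.59 in reconRAG1KO. It was higher by 0.69 in the set of 2 arrays (adjusted limma p of 0.003225), which made the groups overlap, while within each array set the reconSCID samples lay below the reconRAG1KO ones. The difference of Ptprn2 was -0.20 without the block, with an interval from -0.82 to 0.41, and -0.26 with it, with an interval from -0.46 to -0.06, an unadjusted limma p of 0.02098 and an adjusted p of 0.3282. It was -0.17 within the 5 arrays and -0.48 between the 2 arrays. Of the 9 antigens, Ptprn and Ptprn2 were the 2 that differed between the array sets, both higher in the 2 arrays, against 26.9% of all genes higher there and 17.3% lower.

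Chga encodes chromogranin A, the acidic protein of dense-core vesicles from which the epitope of a set of diabetogenic NOD T cells is cut. It measured 8.17, 8.17 and 7.58 in reconSCID, against 8.32, 8.34, 8.46 and 8.82 in reconRAG1KO, or intensities of 288.8, 287.3 and 191.6 against 319.9, 324.1, 351.5 and 450.7. Every reconSCID sample was below every reconRAG1KO sample, which was so for 1.54% of all genes (0 antigens and 1.23% of all genes had the opposite order), and reconSCID replicate 3 was the lowest by a wide margin. Chga averaged 7.97 ± 0.34 in reconSCID (SD, n = 3) and 8.48 ± 0.23 in reconRAG1KO (SD, n = 4). The nearest samples of the groups lay closer together than 1 SD of either group, and the difference was -0.51 ± 0.20 (SE), or 0.702 times the control level, with an interval from -0.98 to -0.04, an unadjusted limma p of 0.03682 and an adjusted p of 1.

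The exact permutation p of the Chga difference was 0.02857, the smallest possible with 35 arrangements of these 7 samples, and within the array sets it was 0.05, the smallest possible with 20 arrangements. With the array set blocked Chga differed by -0.54, with an interval from -0.90 to -0.18, an unadjusted limma p of 0.01119 and an adjusted p of 0.2923. It was -0.50 within the 5 arrays and -0.65 between the 2 arrays. Without reconSCID replicate 3 the difference was -0.31 and without reconRAG1KO replicate 4 it was -0.40. The unadjusted p was over 0.05 without each of these and without reconRAG1KO replicate 3 (-0.52).

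**Figure D2:**
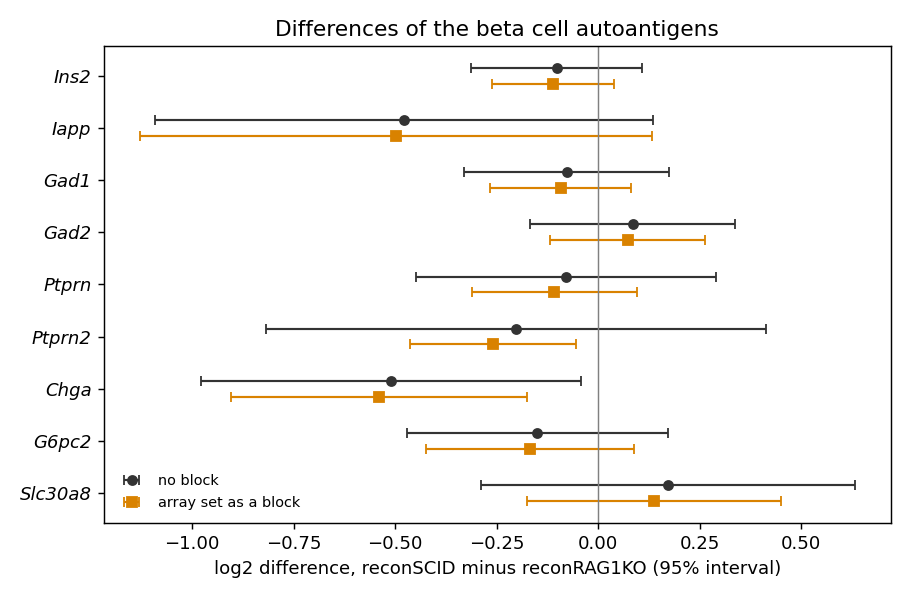
Log2 difference, reconSCID minus reconRAG1KO (horizontal axis), of each of the 9 antigens, with its 95% interval, without a block (grey circles) and with the array set blocked (orange squares). The interval of Chga lies below 0 in both fits (-0.98 to -0.04 and -0.90 to -0.18), that of Ptprn2 lies below 0 with the block alone, and the other 7 intervals hold 0.

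G6pc2 and Slc30a8 complete the list of antigens. G6pc2, the islet glucose-6-phosphatase recognised by CD8 T cells of NOD mice, measured 4.41, 4.68 and 4.54 in reconSCID, against 4.54, 4.51, 4.86 and 4.87 in reconRAG1KO. The lowest sample was reconSCID replicate 1 and the highest were reconRAG1KO replicates 3 and 4, with the rest of both groups mixed between them. The difference of G6pc2 was -0.15, with an interval from -0.47 to 0.17.

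Slc30a8, the transporter that loads zinc into insulin granules, measured 5.23, 5.72 and 5.15 in reconSCID, against 5.29, 5.23, 4.84 and 5.43 in reconRAG1KO. Its highest sample was reconSCID replicate 2 and its lowest reconRAG1KO replicate 3, so that the groups overlapped widely. The difference of Slc30a8 was 0.17, with an interval from -0.29 to 0.63, and without reconSCID replicate 2 it was -0.0035. With Gad2 it was 1 of 2 antigens whose difference was above 0.

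The same few samples lay at the ends of most antigens. ReconSCID replicate 3 was the lowest of the 7 arrays in 4 of 9 (Ins2, Iapp, Ptprn2 and Chga), against 23.7% of all genes, and reconRAG1KO replicate 4 was the highest in 6 of 9, against 30.0% of all genes. With the array set blocked, 2 antigens (Chga and Ptprn2) were lower at an unadjusted p under 0.05, against 6.75% of all genes, and 0 were higher, against 5.34%. At an adjusted p under 0.05, 0 antigens and 0% of the probe sets passed in that fit. At least 2 of the 7 deposited values were identical in 8 of 9 antigens, all but Chga, against 57.8% of all genes, which can make the spread look small.

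Regulators of antigen expression were measured in the same samples. Aire measured 10.70, 11.46 and 9.73 in reconSCID, against 10.90, 10.89, 11.09 and 11.93 in reconRAG1KO, and was lowest in reconSCID replicate 3, as Chga was. Fezf2 measured 9.19, 9.63 and 8.57 in reconSCID, against 9.46, 9.53, 9.85 and 9.81 in reconRAG1KO. Neither passed, with differences of -0.57 for Aire and -0.53 for Fezf2 at an adjusted limma p of 1. The groups of each overlapped over all arrays, while within each array set every reconSCID sample lay below every reconRAG1KO sample. With the array set blocked, Aire differed by -0.67 (interval -1.25 to -0.08, unadjusted limma p of 0.03117, adjusted p of 0.3589) and Fezf2 by -0.57 (interval -1.07 to -0.07, unadjusted p of 0.03157, adjusted p of 0.3602). Without reconSCID replicate 3 the unblocked difference was -0.12 for Aire and -0.25 for Fezf2, and without reconSCID replicate 2 it was -0.99 for Aire and -0.78 for Fezf2. Without reconRAG1KO replicate 4 it was -0.33 for Aire. Over 15 of 16 listed regulators the median difference was -0.04, with 9 lower and 0 past the threshold. In the blocked fit 2 of 15 (Aire and Fezf2) were lower at an unadjusted limma p under 0.05 and 2 were higher, against 6.75% and 5.34% of all genes. The higher ones were the topoisomerase genes Top2b (0.59, interval 0.34 to 0.83) and Top2a (0.52, interval 0.09 to 0.94).

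Markers of medullary epithelium were lower in 16 of 18, with a median of -0.40 and sums from 46539 to 50705 in reconSCID and from 51072 to 54964 in reconRAG1KO, and 0 passed after adjustment. The brightest of them, which weigh most in these sums, were Cd74 and the MHC class II genes H2-Aa, H2-Ab1 and H2-Eb1. These differed by -0.03, -0.01, -0.01 and 0.04. In the blocked fit 14 of 18 were lower, with a median of -0.42, and the median was -0.48 within the 5 arrays and -0.17 between the 2 arrays. The groups did not overlap, with reconSCID lower, for 2 of 18, against 1.54% of all genes. They were Cldn4, a claudin of mature medullary cells (-0.71), and Tnfrsf11a, the receptor RANK (-0.20). Markers of cortical epithelium had a median of -0.18 over 7, with sums from 3017 to 4547 in reconSCID and from 3232 to 7783 in reconRAG1KO. The cortical protease gene Prss16 differed by -0.48 within the 5 arrays and by -2.89 between the 2 arrays, and the chemokine gene Ccl25 by -1.21 and -2.21, both chosen after their values were seen. Of the 7 cortical markers 5 were lower over all arrays, while Psmb11 (0.09) and Ctsl (0.11) were higher. General epithelial markers, like the medullary ones, were mostly lower. Of 17 such genes 16 were lower in reconSCID, with a median difference of -0.48, or -0.60 with the array set blocked and 17 lower, and 0 passed after adjustment. Their median was -0.79 within the 5 arrays and -0.24 between the 2 arrays. The groups did not overlap for 2 of 17, Cldn4 and Lsr, a tight junction gene (-0.19), against 1.54% of all genes. The summed intensity of the general epithelial markers ran from 5989 to 20695 in reconSCID and from 10723 to 22660 in reconRAG1KO. Krt18, a keratin of simple epithelia chosen here after its values were seen, measured 9.80, 10.86 and 9.27 in reconSCID, against 10.24, 10.45, 10.61 and 11.41 in reconRAG1KO. B cell markers ran the other way, with 8 of 9 higher, a median of 0.91 and summed intensities from 1840 to 4526 in reconSCID and from 1725 to 1901 in reconRAG1KO. Their median was 1.24 within the 5 arrays and 0.18 between the 2 arrays. Dendritic cell and macrophage markers were higher in 8 of 10, with a median of 0.16, or 0.59 within the 5 arrays and -0.18 between the 2 arrays. Endothelial and fibroblast markers were higher in 6 of 8, with a median of 0.22, or 0.02 within the 5 arrays and 0.32 between the 2 arrays. Thymocyte markers were higher in 6 of 12, with a median of 0.01. Neutrophil markers were lower in 8 of 8, with a median of -1.43 and sums from 889.3 to 1609 in reconSCID and from 1100 to 7860 in reconRAG1KO. The groups did not overlap for 2 of 8, Lcn2 (-1.52) and Retnlg (-1.39), against 1.54% of all genes. The neutrophil median was -1.63 within the 5 arrays and -0.19 between the 2 arrays. With the array set blocked, 12 of 17 general epithelial and 7 of 18 medullary markers were lower at an unadjusted limma p under 0.05. So were 4 of 7 cortical and 4 of 8 neutrophil markers, against 6.75% of all genes. None of these markers was higher at that level. Of the B cell markers 6 of 9 were higher, against 5.34% of all genes, and 0 lower. Higher too were 1 of 10 dendritic cell and macrophage markers and 2 of 8 endothelial and fibroblast markers, with 0 lower in either list. Of the 12 thymocyte markers 0 were higher and 0 lower. The part of these cell type differences in the level of Chga and the other antigens was not tested.

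**Figure D3:**
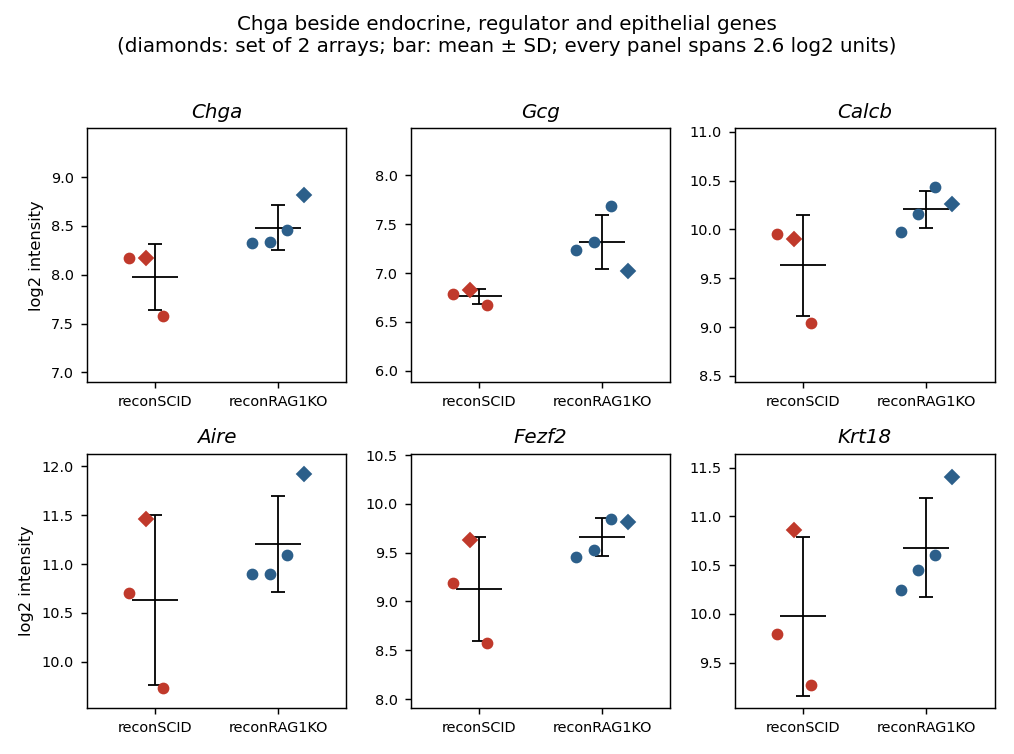
Log2 intensity (vertical axis) of Chga beside glucagon (Gcg), the Iapp paralog Calcb, Aire, Fezf2 and the keratin Krt18 in the 3 reconSCID samples (red, left) and the 4 reconRAG1KO samples (blue, right), with diamonds for the set of 2 arrays, and with the mean and SD as a black bar. The groups do not overlap for Chga, Gcg and Calcb, and for Aire, Fezf2 and Krt18 they overlap over all arrays but not among the circles or between the diamonds. ReconSCID replicate 3 is the lowest sample in all 6 panels.

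None of the other listed beta cell genes and diabetes antigens passed the adjusted test. Transcription factors of the endocrine pancreas had a median difference of -0.04 over 17 of 19 listed genes, 13 of them lower, with 0 past the threshold and 0 at an unadjusted p under 0.05 in either direction. With the array set blocked the median was -0.06, and 2 of 17 were lower at an unadjusted p under 0.05 and 0 higher, against 6.75% and 5.34% of all genes. They were, chosen after their values were seen, the insulin gene activator Mafa (-0.28, interval -0.42 to -0.14) and Isl1 (-0.46, interval -0.79 to -0.13), a factor of all islet endocrine cells. Genes of glucose sensing, insulin processing and secretion had a median of -0.10 over 25 of 29, 21 of them lower, again with 0 past the threshold and 0 at an unadjusted p under 0.05. In the blocked fit the median was -0.12, and 22 of 25 were lower. At an unadjusted p under 0.05, 4 of the 25 (Scg5, Ucn3, Pam and Adcyap1) were lower and 0 higher, against the same 6.75% and 5.34%. Scg5, the chaperone of a prohormone convertase, differed by -0.36 (interval -0.57 to -0.16), and was also chosen after its values were seen. In that list Adcyap1, a neuropeptide that promotes insulin release, was the 1 gene of 25 whose groups did not overlap, against 1.54% of all genes. It measured 6.09, 6.11 and 5.75 in reconSCID, against 6.14, 6.14, 6.14 and 6.73 in reconRAG1KO. Its difference was -0.31, with an interval from -0.75 to 0.14. Further antigens reported in type 1 diabetes had a median of -0.11 over 11 of 13, 9 of them lower and 0 past the threshold. In that list, with the array set blocked, 2 (Prph and Npy) were lower and 1 (Hspd1) higher at an unadjusted p under 0.05. All genes again had shares of 6.75% and 5.34%.

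Hormones of the other islet cells had a median difference of -0.29 over 5 of 5 genes, 4 of them below 0, with 0 past the threshold. At an unadjusted p under 0.05, 2 of 5 (Gcg and Sst) were lower, against 1.19% of all genes, and the groups did not overlap for 1 (Gcg), against 1.54%. Gcg, the glucagon gene of alpha cells, measured 6.78, 6.82 and 6.68 in reconSCID, against 7.23, 7.32, 7.69 and 7.03 in reconRAG1KO. Its difference was -0.56 ± 0.16 (SE), with an interval from -0.94 to -0.17, an unadjusted limma p of 0.01128 and an adjusted p of 1. Somatostatin, Sst, differed by -0.51, with an interval from -0.92 to -0.10, and the pancreatic polypeptide Ppy, the peptide YY gene Pyy and the ghrelin gene Ghrl by -0.22, -0.29 and 0.004. Whether the hormone genes differed from the beta cell genes was not tested.

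**Figure D4:**
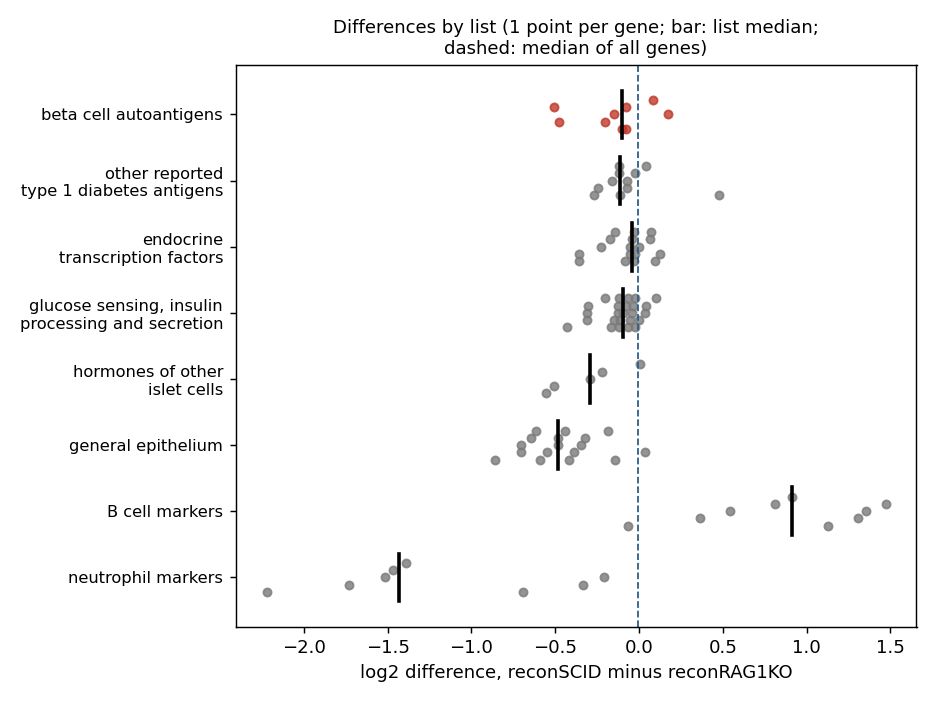
Log2 difference, reconSCID minus reconRAG1KO (horizontal axis), of each gene (1 point) in the beta cell autoantigens (red) and 7 other lists (grey), with list medians as black bars and the median of all genes, -0.007, as a dashed line. The median of the autoantigens (-0.10) lies close to the dashed line. So do those of other reported diabetes antigens (-0.11), endocrine transcription factors (-0.04) and glucose sensing, insulin processing and secretion (-0.10). Those of the hormones of other islet cells (-0.29), general epithelium (-0.48) and neutrophils (-1.43) lie further below it, and that of B cells (0.91) above it.

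The genes whose pattern was most like that of an antigen were found by Pearson correlation of deviations from the mean of each array set, over 7 arrays and 1 probe set per gene, as a description. For Ins2 they were Anapc2, a subunit of the anaphase-promoting complex (0.998), Smyd5, of the SET and MYND domain family (0.998), and the complement gene C2 (0.998). For Chga, the antigen of highest mean level, they were Aldh4a1, an enzyme of proline breakdown (0.997), Cacna2d2, an auxiliary calcium channel subunit (0.997), and Stat5a, a cytokine-activated transcription factor (0.997). None of the 6 belongs to the lists above, and with 7 arrays from 2 sets such values describe these samples alone.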

How the data were processed

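Expression was measured on 7 arrays, with groups and replicate numbers taken from the sample titles. Per the labels, labelled cRNA came from 6 µg of total RNA. Each deposited value is a linear intensity of a probe set, and the array medians lie close together. How the authors corrected background, summarised probes and scaled arrays was not given in the sources used here. With 0 values below 1, log2 was taken with no pseudocount.

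All 34760 probe sets entered limma (version 3.58.1, R version 4.3.3), with lmFit followed by eBayes. Tests were two-sided at a threshold of 0.05 after Benjamini-Hochberg adjustment. Probe sets with 1 symbol numbered 21640, those with several 1321 and unnamed ones 11799, and the brightest probe set stood for a gene. Exact permutation tests were two-sided. The number of arrays limits the precision. The cause of identical deposited values on several arrays was not tested.

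The antigens, the lists, the array sets and the tests were chosen with earlier results of these data known. The rule for genes named beside the antigens gave Aire, Fezf2, Prkdc and Rag1, up to 4 per list whose groups do not overlap, by size, and the 3 most similar to Ins2 and to the antigen of highest level (within array sets here). Cell markers (Cd74, Epcam, Lyz2) and the remaining islet hormones are named outside this rule. Prkdc and Rag1 differed by 0.14 and 0.04. The SCID mutation changes a coding base and Rag1 transcripts can come from the transferred marrow, so neither checks a label.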

Additional observations from a re-analysis of the deposited data

Results flagged for a closer look

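In the 4 reconRAG1KO samples, 5 of 21 genes examined had 1 sample far from the other 3 by Dixon's criterion. Chance meets it in about 1 of 20 groups of untied samples drawn alike, a rate that cannot be applied here, since identical deposited values among these samples shrink the range of Gad2, Ptprn, Ptprn2 and Adcyap1. ReconRAG1KO replicate 4, already known to stand apart as an array of the set of 2, was the high sample in 4 of them. Gad1 measured 7.36 there, against 7.04 to 7.08 in the others. Ptprn measured 6.99, against 6.44 to 6.49. Ptprn2 measured 7.59, against 6.71 to 6.79. Adcyap1 measured 6.73, while the other 3 shared the deposited value behind 6.14. Gad2 was low in reconRAG1KO replicate 2, at 4.71 against 4.75 to 4.76, a gap that is small on the log2 scale. The 3 reconSCID samples are too few for this criterion.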

How the results depend on the processing

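The count of antigens past the adjusted threshold was 0 under all 17 alternatives, and the differences of Ins2, Iapp, G6pc2, Gad1 and Chga stayed below 0 under each alternative run. The difference of Chga ran from -0.73 to -0.29 over its 25 alternatives. It was -0.73 with the array set blocked and reconSCID replicate 1 left out, and -0.29 with array weights. The adjusted limma p of Chga ran from 0.2006 to 1, and was 0.2669 with array weights. Leaving out 1 sample gave -0.61 to -0.31 for Chga. The unadjusted limma p of Chga was over 0.05 with quantile normalization (0.08173), array weights (0.05167), the replicate block (0.1188) and the 5 arrays alone (0.059). The alternatives of the 2 arrays alone and of the array set blocked with 1 sample left out were chosen after seeing the data. The sign turned under some alternatives for Gad2, Ptprn, Ptprn2 and Slc30a8. Gad2 was -0.017 within the 5 arrays and -0.030 with array weights, and leaving out 1 sample gave -0.021 to 0.15, or -0.017 to 0.12 with the array set blocked. Ptprn was 0.050 with the replicate block and -0.13 to 0.050 with 1 sample left out, Ptprn2 was 0.0064 with the replicate block and -0.38 to 0.0064 with 1 sample left out, and Slc30a8 was -0.0035 to 0.28 with 1 sample left out. With array weights 57 probe sets passed, none of them an antigen, where reconSCID replicates 1, 2 and 3 had weights of 4.79, 0.12 and 0.80. The median of the antigen paralogs was -0.094 to -0.020 with 1 sample left out. Deviations from the group mean correlated at 0.472, -0.509 and 0.314 between samples of equal replicate number 1, 2 and 3. The array set difference was left in these deviations, and the samples numbered 2 lie in different array sets. The correlations therefore cannot decide whether replicate numbers pair the samples. With the replicate block Chga differed by -0.40 and 0 antigens passed. The mean of all probe sets gave the same values, each antigen having 1. Probe sets above the median level left 4 antigens (Gad1, Ptprn, Ptprn2 and Chga).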

Other observations

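Paralogs of the antigens showed no common direction, with a median difference of -0.006 over 21 of 23 listed genes, 11 of them lower, and 0 past the threshold. Among the zinc transporters related to Slc30a8, chosen here after their values were seen, Slc30a4 differed by 0.35 without a block and by 0.40 with the array set blocked, with an interval from 0.21 to 0.59, and Slc30a5 by 0.41 and 0.47, with a blocked interval from 0.19 to 0.75. Their adjusted limma p with the block was 0.2466 and 0.2695. The mitochondrial chaperonin gene Hspd1, a reported antigen of diabetes outside the main list and also chosen after its values were seen, ran against the antigens, at 10.83 ± 0.59 in reconSCID (SD, n = 3) and 10.36 ± 0.37 in reconRAG1KO (SD, n = 4). Its difference was 0.48, or 0.55 with the block, with an adjusted limma p of 0.2556.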
